A study of Mus musculus with 38 samples.

Results

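The hypothalamus of mice that had received a vector for the 18Q huntingtin fragment was compared with that of uninjected mice, across all genes on the array. Of the 38 arrays of the series, 10 belong to this comparison. 5 arrays carry the label 18Q (replicates 1, 2, 3, 4 and 6) and 5 the label Control (replicates 1, 2, 4, 5 and 7), with 1 mouse per array. All 10 mice were wild-type (WT) females of the FVB/N strain and 12 weeks old when the hypothalamus was taken. The 18Q mice had been injected on both sides of the hypothalamus at 8 weeks of age, 4 weeks earlier, with an adeno-associated viral (AAV) vector of serotype 5. That vector codes for the first 853 amino acids of human huntingtin (HTT) with 18 CAG repeats, a length in the normal range, under the human Synapsin-1 promoter, which restricts expression to neurons. A further 8 mice had received the same fragment with 79 CAG repeats (79Q), the expanded form, and served here as the most similar group. Control mice were littermates that had no surgery and no vector, and no group received a vector without HTT. Surgery, vector capsid, vector genome and HTT fragment therefore cannot be told apart in any difference below.

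HTT is a large scaffold protein of vesicle transport and transcription, and its glutamine stretch is expanded in Huntington's disease. An AAV capsid and its DNA can be sensed by receptors of the innate immune system, which then induce interferons. Interferons bind receptors on neighbouring cells, and a relay of JAK kinases, STAT proteins and interferon regulatory factors switches on a large set of antiviral genes through an enhancer sequence, the interferon-stimulated response element. Microglia are the resident macrophages of the brain, astrocytes support neurons and seal vessels, and lymphocytes are rare in the uninjured brain. The hypothalamus holds peptide neurons that control feeding, water balance, reproduction and the pituitary gland, and its neurons and glia make their own cholesterol.

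The values are log2 intensities, so that a difference of 1 is 2-fold, and levels of different genes are not compared with each other. Median log2 values ran from 7.40 to 7.46 over the 18Q arrays and from 7.38 to 7.40 over the Control arrays, a difference of 0.0325 (exact two-sided permutation test over arrays, p = 0.0238, where the smallest possible p is 0.00794). The 10 arrays correlated with each other at 0.987 to 0.996 (Pearson, across probe sets). Half-widths of the 95% confidence interval (CI) of a gene had a median of 0.129 log2 units, which the number of arrays limits.

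Several 18Q arrays stood apart in markers of neighbouring tissue. Prl, the pituitary hormone prolactin, read 10.23, 11.12, 11.76, 6.75 and 6.32 in 18Q replicates 1, 2, 3, 4 and 6, and 5.64 to 6.60 in the Control arrays. Gh, growth hormone of the same gland, read 9.06, 9.52, 10.44, 7.04 and 7.11, against 6.94 to 7.04. Replicates 1, 2 and 3 thus carried hormone signal of the pituitary, and replicates 4 and 6 were near the Control arrays. Neither gene passed the test (adjusted p = 0.171 for Prl and 0.251 for Gh), and none of the 11 measured pituitary markers was called. In replicate 3, Slc6a3, the dopamine transporter of midbrain neurons, was at 12.18 against 7.80 to 8.19 in the other 18Q arrays, and Avp, which codes for vasopressin, was at 8.97 against 10.63 to 11.54. The part of these differences in the results was not tested, but counts are also given for replicates 4 and 6 as the only 18Q arrays, an alternative chosen after the data were seen. In bulk tissue, fewer cells of a type and less RNA per cell cannot be told apart.

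A gene was called where its p, from limma over the 18 arrays of the AAV experiment with Benjamini-Hochberg adjustment over the 34760 probe sets, was under 0.05. Of 19937 genes with a single-symbol probe set, 493 were higher in 18Q, 2.47 percent, and 86 were lower, 0.431 percent. The called increases were also the larger ones. Their median was 0.61 on the log2 scale, and 304 exceeded 0.5, 112 exceeded 1, 32 exceeded 2, 11 exceeded 3 and 4 exceeded 4. The called decreases had a median of -0.20, and none fell by more than 0.5. All 5 18Q arrays lay above all 5 Control arrays in 438 of the 493 genes called higher, and below them in 67 of the 86 called lower. Over all genes, called or not, the groups did not overlap in 3.39 percent with 18Q higher and in 2.02 percent with 18Q lower. The median difference over all genes was -0.01 and 42.9 percent of genes were above 0. With replicates 4 and 6 as the only 18Q arrays, 79 genes were called, 76 higher and 3 lower, of which 77 were among the 579. The share of called genes that were higher was 85.1 percent, and 69.3 percent (441 higher, 195 lower) where each array was centred on its median. The fit was also repeated 10 times, each time without 1 of the 10 arrays, and the named genes that lost a call there are given with those losses. Named genes called in all 10 but not with the 10 arrays fitted alone, or with the replicate number as a block, are given so too.

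**Figure D1:**
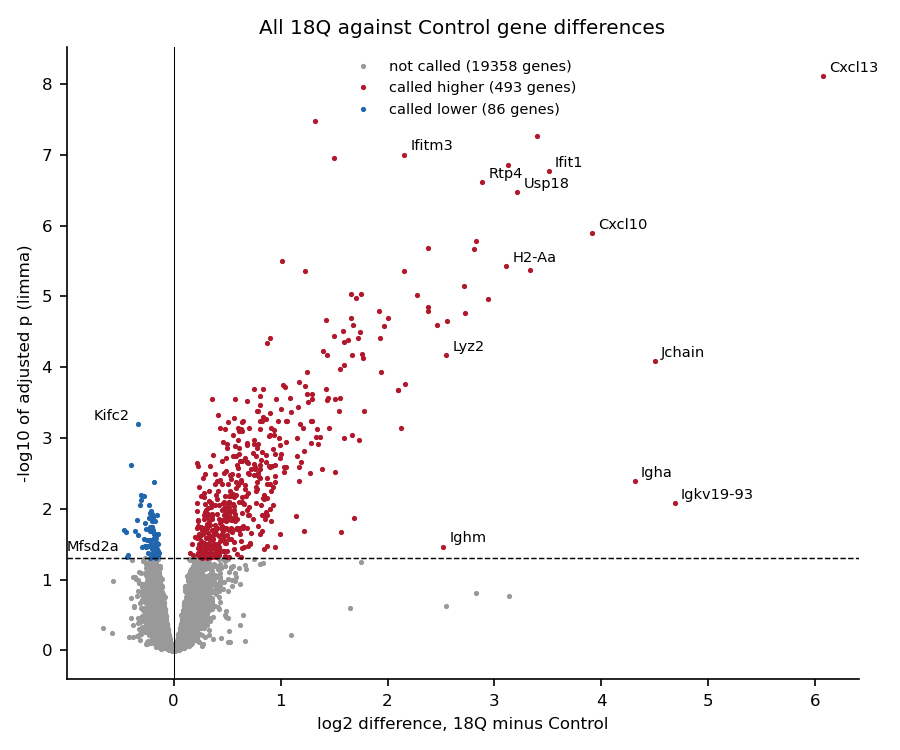
Each dot is a gene, with the log2 difference of 18Q minus Control on the x axis and −log10 of the adjusted p from limma on the y axis; red marks the 493 genes called higher, blue the 86 called lower, and the dashed line an adjusted p of 0.05. Called increases reach 6.07 (Cxcl13), while called decreases stay above -0.5.

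The size of the response differed between the 18Q mice. Among the 493 genes called higher, 18Q replicate 6 had the smallest shift from the Control mean in 432, and replicate 4 had the largest in 228. The median shift of these genes was 0.72, 0.48, 0.79, 0.79 and 0.32 in replicates 1, 2, 3, 4 and 6. Among the 86 genes called lower, replicate 6 again had the smallest shift most often, in 48. In a principal component analysis of the 10 arrays the first component held 34.5 percent of the variance. 18Q replicate 6 lay at 2.42 on it, between the other 18Q arrays at 11.8 to 31.1 and the Control arrays at -20.6 to -17.7. Without replicate 6, 889 genes were called, and without replicate 4, 350. Replicate 6, with the smallest shifts, and replicate 4, most often with the largest among genes called higher, were both near Control for the pituitary hormones. Whether the pituitary signal bears on the size of the response was not tested.

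The genes were read through 72 lists of pathways and cell types, in which 1305 genes were measured and which held 237 of the 493 called higher and 16 of the 86 called lower. In 12 lists at least 1 in 2 of the measured members was called higher. They cover antiviral effectors, interferon-inducible GTPases, sensors of nucleic acids, MHC class I presentation, the immunoproteasome, general myeloid markers, complement, Fc receptors, the phagocyte oxidase, leukocyte adhesion, inflammatory cell death and reactive astrocytes. In 25 lists no member was called, and in 8 lists a member was called lower. Against 2.47 percent higher and 0.431 percent lower over all genes, a short list with no call or a single call is near the share.

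**Figure D2:**
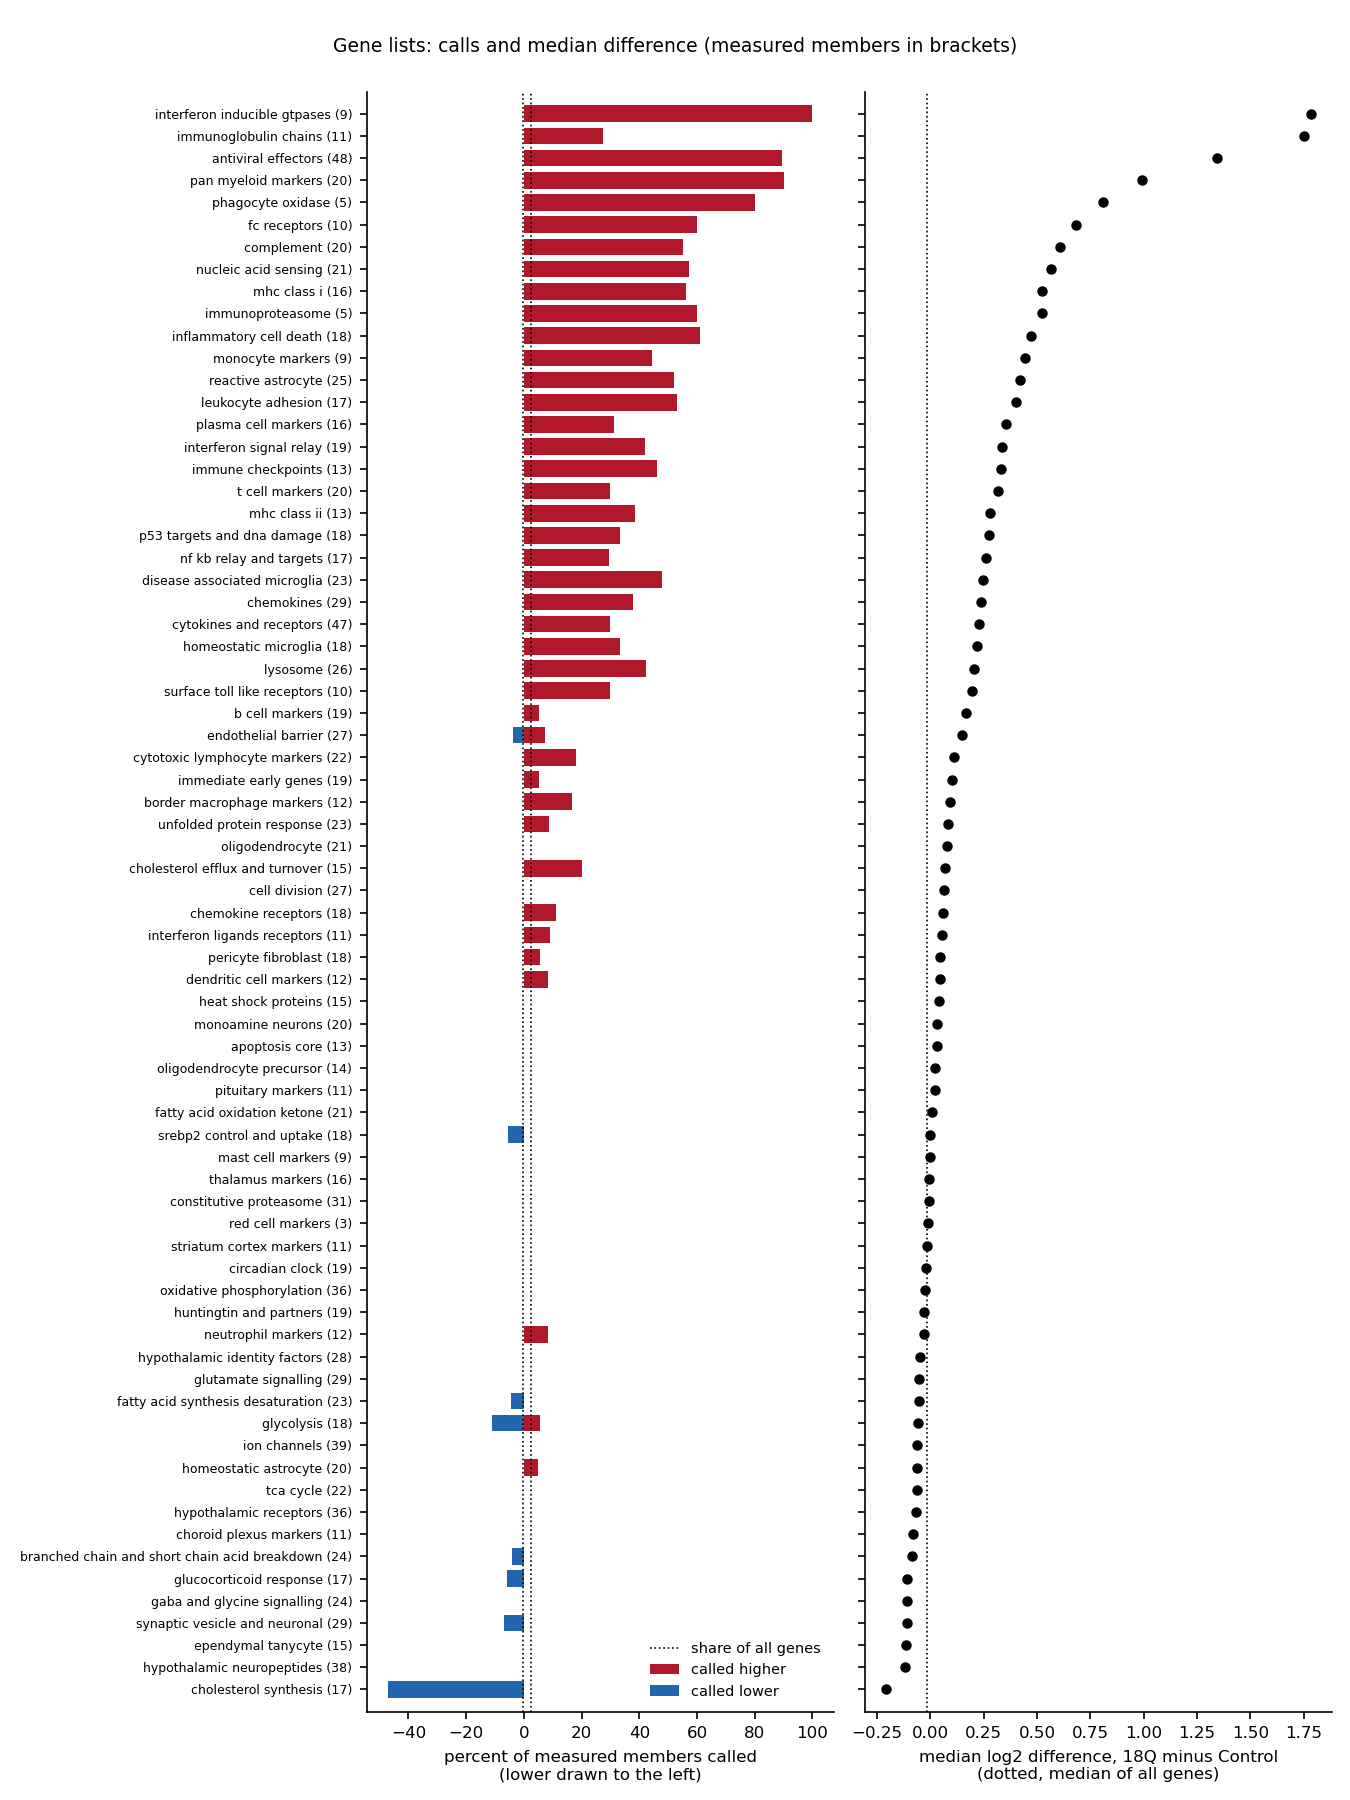
For each of the 72 lists, the left panel gives the percent of measured members called higher (red) and lower (blue, drawn to the left), with dotted lines at the share over all genes, and the right panel the median log2 difference of 18Q minus Control. GTPases, antiviral effectors and immunoglobulin chains have the highest medians, and cholesterol synthesis is the list with the lowest median and with called members on the lower side.

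No measured interferon ligand passed the test. Ifnb1, interferon beta, differed by -0.08 (95% CI -0.26 to 0.11), Ifna4, an interferon alpha, by 0.03 (-0.13 to 0.19), and Ifng, interferon gamma, by 0.06 (-0.14 to 0.26). For each of these ligands the groups overlapped. Their probe sets were dim, with means under the median of 7.41 over all probe sets. A change could be missed at such levels, so these values do not show that the ligands were unchanged. Ifna1 and Ifnl3 have no single-symbol probe set here and were not read. Of the 11 ligands and receptors measured, 1 was called higher: Ifnar2, a chain of the receptor for alpha and beta interferons, read 9.43, 9.30, 9.35, 9.48 and 9.32 in 18Q and 9.04 to 9.17 in Control (0.27, SE 0.05, adjusted p = 0.00651). The partner chain Ifnar1 was at 0.06 (CI -0.03 to 0.14). Ifngr1, a chain of the interferon gamma receptor, was at 0.26 with groups that did not overlap, but its adjusted p was 0.0535.

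The relay behind the receptors split into members that rose and members that did not pass. Of 19 measured, 8 were called higher, and the median was 0.34. Usp18, which shuts off the receptor and is itself induced by interferon, read 10.45, 9.63, 9.64, 10.19 and 9.08 in 18Q and 6.52 to 6.63 in Control. That is a difference of 3.21 (SE 0.24), 9.26-fold, with an adjusted p of 3.39e-07. Irf7, the factor that amplifies interferon production, rose by 2.81 (SE 0.24, adjusted p = 2.13e-06). Irf9 and Stat2, transcription factors that act at the response element, rose by 1.43 (SE 0.15) and 0.98 (SE 0.14). In each of these 4 genes the lowest 18Q array was above the highest Control array. Jak1 (-0.05, CI -0.14 to 0.03) and Tyk2 (0.03, CI -0.06 to 0.12), the kinases on the receptor, were not called, and neither was Irf3 (0.13, adjusted p = 0.292), which acts before interferon is made.

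Antiviral effectors were the list with the most called genes, 43 of 48, with a median of 1.34. Ifit1, which binds viral RNA ends, read 10.48, 9.59, 9.83, 10.28 and 8.97 in 18Q and 6.14, 6.40, 6.33, 6.51 and 6.24 in Control (3.51, SE 0.24, 11.4-fold, adjusted p = 1.68e-07). Oasl2, a member of the oligoadenylate synthetase family, read 11.71, 10.90, 10.99, 11.53 and 10.55 against 7.65 to 7.84 (3.40, SE 0.21). Ifitm3, which blocks the fusion of enveloped viruses in endosomes, read 11.64, 11.09, 11.26, 11.69 and 11.04 against 8.99 to 9.33 (2.16, SE 0.14). Replicate 6 was the lowest 18Q array for each of these 3 genes, yet was higher than every Control array. With replicates 4 and 6 as the only 18Q arrays 27 of the 48 were called.

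To show the sequence that interferon factors bind, promoters (250 bases before to 50 after the transcription start) were taken from RefSeq on GRCm38.p6 and searched on both strands for GAAANNGAAA, a form of the interferon-stimulated response element, and for TTCNNNGAA, the gamma-activated site. Printed are the called antiviral effectors with a match and the smallest p, 5′ to 3′ on the strand of the gene, with matches to the response element in capitals. They lie at chr7:141010695-141010994 (minus strand), chr19:34583279-34583578 (plus strand) and chr19:34640639-34640938 (plus strand).
Ifitm3: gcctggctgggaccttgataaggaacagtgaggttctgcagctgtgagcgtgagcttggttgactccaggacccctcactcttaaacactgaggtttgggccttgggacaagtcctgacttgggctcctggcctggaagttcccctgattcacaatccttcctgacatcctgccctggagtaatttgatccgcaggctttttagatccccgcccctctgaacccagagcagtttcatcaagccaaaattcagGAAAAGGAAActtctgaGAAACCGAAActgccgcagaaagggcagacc
Ifit3: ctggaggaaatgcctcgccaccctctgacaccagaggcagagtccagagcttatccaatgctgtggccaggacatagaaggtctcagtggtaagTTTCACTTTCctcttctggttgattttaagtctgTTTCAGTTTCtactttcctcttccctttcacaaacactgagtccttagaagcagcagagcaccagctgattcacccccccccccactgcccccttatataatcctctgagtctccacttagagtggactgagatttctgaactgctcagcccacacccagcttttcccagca
Ifit1: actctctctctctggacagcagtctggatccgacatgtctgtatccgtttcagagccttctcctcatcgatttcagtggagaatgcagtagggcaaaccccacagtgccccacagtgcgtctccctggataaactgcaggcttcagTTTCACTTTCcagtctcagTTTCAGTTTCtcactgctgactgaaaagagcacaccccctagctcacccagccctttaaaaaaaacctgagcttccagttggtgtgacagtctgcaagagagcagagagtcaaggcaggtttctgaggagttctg
Each promoter holds 2 matches, on the opposite strand in Ifit3 and Ifit1, and the second match of Ifitm3 overlaps a gamma-activated site. The response element was found in 3.44 percent of all 32851 promoters, in 3.27 percent of the 19176 promoters of measured genes, in 55 of the 462 promoters (11.9 percent) of genes called higher and in 17 of the 52 (32.7 percent) of antiviral effectors. Among the 87 promoters of genes called lower 0 held it. The gamma-activated site was in 8.3 percent of all promoters and 12.1 percent of those of genes called higher. These shares describe letters in a window.

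**Figure D3:**
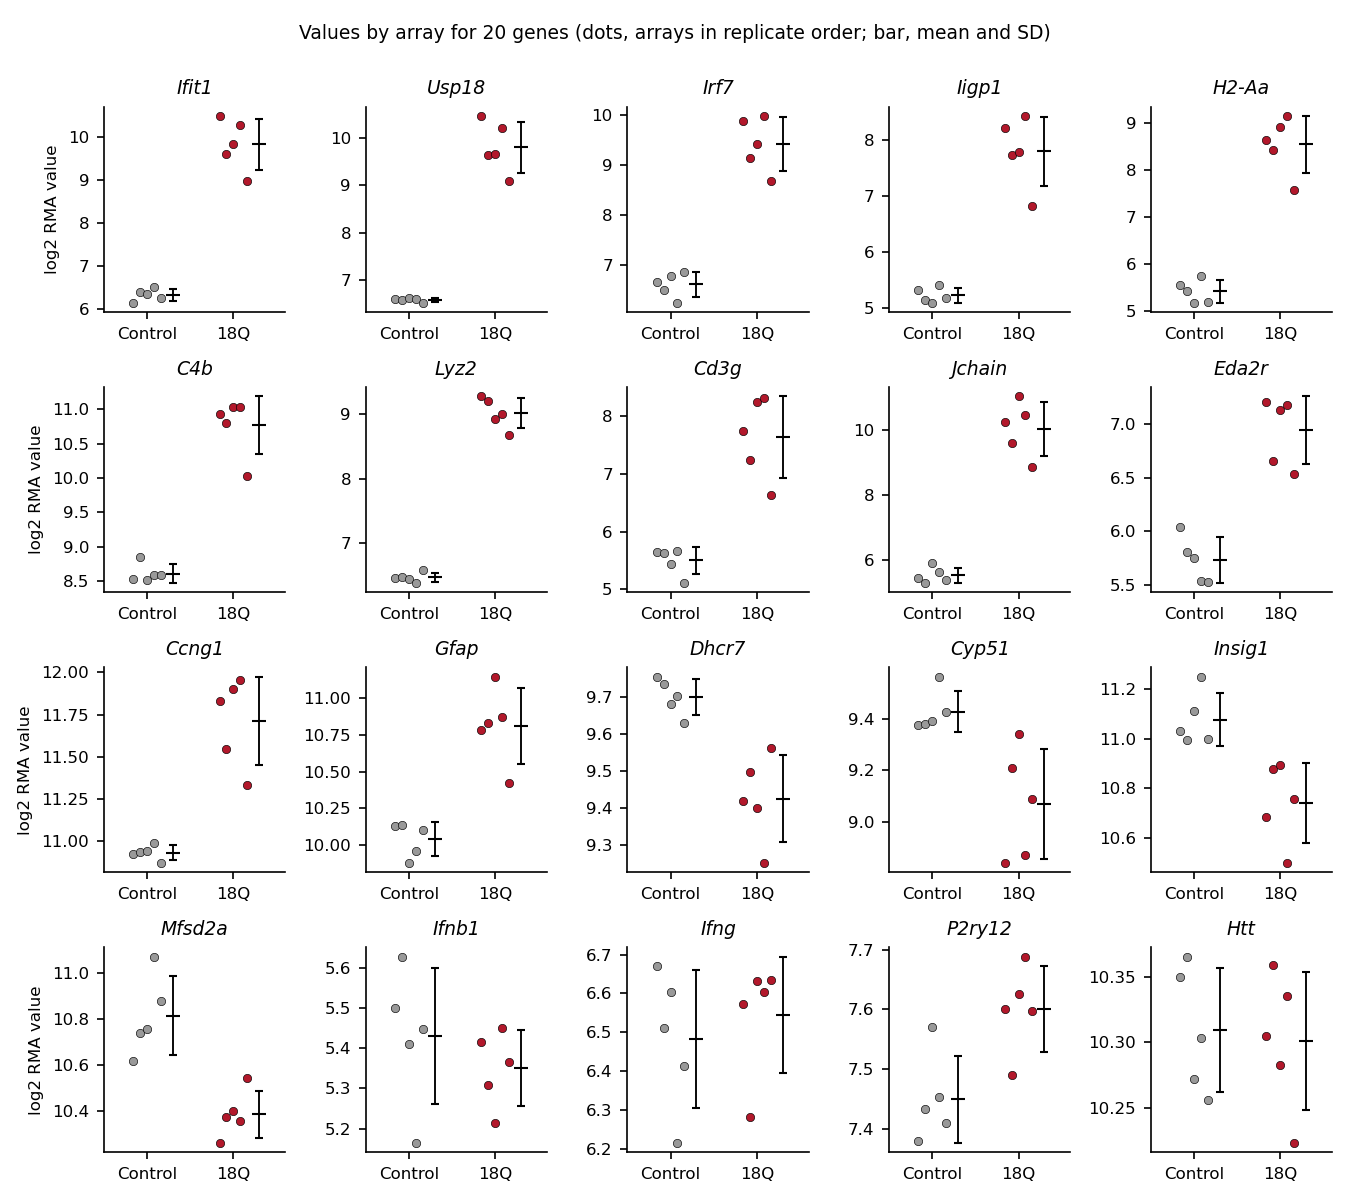
Log2 values of 20 genes in the 5 Control arrays (grey) and the 5 18Q arrays (red), in the order of their replicate numbers, with the mean and SD as a bar beside them; each panel has its own y axis. The groups lie far apart for Ifit1, Usp18 and Jchain, lie closer but apart for Dhcr7, Cyp51, Insig1 and Mfsd2a, and overlap for Ifnb1, Ifng, P2ry12 and Htt.

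Interferon-inducible GTPases, which attack the membranes around intracellular microbes, were called in all 9 measured members (median 1.78). Iigp1 read 8.20, 7.73, 7.78, 8.41 and 6.83 in 18Q and 5.10 to 5.42 in Control (2.55, SE 0.27). Irgm1 rose by 2.38 (SE 0.25), Gbp3 by 2.27 (SE 0.22) and Gbp7 by 1.76 (SE 0.21).

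Sensors of nucleic acids were called in 12 of 21, with a median of 0.56. The RNA helicases of the cytosol rose most: Ddx58, which codes for RIG-I, read 9.72, 9.33, 9.35, 9.76 and 8.95 against 7.57 to 7.91 (1.75, SE 0.17), and Ifih1, which codes for MDA5, rose by 1.72 (SE 0.19). Sting1, the adaptor for cytosolic DNA, rose by 0.86 (SE 0.13). Cgas, the enzyme that sees that DNA (-0.06), Mavs, the adaptor of the helicases (0.07), and Tbk1, the kinase behind both (0.00), were not called, with adjusted p of 0.74, 0.688 and 0.985. The list of Toll-like receptors on the cell surface also names genes of their signalling, such as Irak4, which was not read. Of its 10 measured genes 3 were called, the receptors Tlr2 (0.42), Tlr1 (0.39) and Tlr4 (0.35). Each lost its call when single arrays were left out (adjusted p up to 0.12, 0.139 and 0.126).

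Genes of antigen presentation were called higher in both classes, though not in all members. Of 16 genes of class I presentation 9 were called: H2-Q4, a class I heavy chain, read 9.21, 8.75, 9.05, 9.44 and 8.07 against 6.30 to 6.85 (2.38, SE 0.24), and the peptide pump Tap1 and the light chain B2m rose by 1.56 (SE 0.21) and 1.50 (SE 0.10). The inducible catalytic subunits of the immunoproteasome, Psmb8 (1.44, SE 0.20) and Psmb9 (0.95, SE 0.16), and the activator Psme2 (0.52, SE 0.11) rose, 3 of 5 in all. None of the 31 constitutive proteasome subunits was called, with a median of -0.01 and a range of -0.17 to 0.10. In class II presentation 5 of 13 were called. Cd74, the invariant chain, read 10.04, 9.91, 10.46, 10.43 and 8.80 against 6.36 to 6.83 (3.33, SE 0.30), and H2-Aa read 8.64, 8.43, 8.90, 9.13 and 7.58 against 5.19 to 5.74 (3.11, SE 0.28). Ciita, the master factor of class II genes, was at 0.03 (CI -0.12 to 0.18). Its probe set was dim, with a mean under the median over all probe sets, so a change could be missed.

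Chemokines were called in 11 of 29, and the largest change of any gene was among them. Cxcl13, which attracts B cells, read 11.86, 11.03, 11.95, 12.01 and 10.19 against 5.10 to 5.61, 67-fold (6.07, SE 0.31). Cxcl10, an attractant of activated T cells, read 11.63, 10.76, 11.20, 11.57 and 9.59 against 6.90 to 7.20 (3.91, SE 0.32). Ccl5 rose by 2.72 (SE 0.28) and Cxcl9 by 2.47 (SE 0.27). Of 18 chemokine receptors, Cx3cr1 (0.47, SE 0.10), the fractalkine receptor of microglia, and Cxcr4 (0.32, SE 0.07) were called. Cxcr4 lost its call in 5 of the 10 fits that left out an array (adjusted p up to 0.0684). Cxcr5, the receptor of Cxcl13, was at 0.07 (CI -0.10 to 0.25), and Cxcr3, that of Cxcl9 and Cxcl10, at 0.33 (adjusted p = 0.146).

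Among 47 cytokines and their receptors 14 were called, a count that ran from 8 without 18Q replicate 3 or 4 to 21 without 18Q replicate 6. Il1a, interleukin 1 alpha, was at 6.25 to 6.68 in 18Q replicates 1, 2, 3 and 6 and higher still in replicate 4, against 5.32 to 5.62 in Control (1.15, SE 0.19). Osmr, the oncostatin M receptor, rose by 1.06 (SE 0.16), Tnfrsf1a, a receptor of tumour necrosis factor, by 0.61 (SE 0.09) and Tgfbr2, a receptor of transforming growth factor beta, by 0.50 (SE 0.08). Tnf (0.19, CI -0.03 to 0.42), Il1b (0.19, CI 0.01 to 0.36) and Il6 (0.06, CI -0.09 to 0.21) were not called. In the NF-kB relay and its targets 5 of 17 were called, Bcl3 (0.53, SE 0.11), Icam1 (0.62), Vcam1 (0.46), Rela (0.23) and Traf1 (0.27). That count ran from 1 to 10 when single arrays were left out, the lowest where 18Q replicate 1 and the highest where 18Q replicate 6 was missing, and was 3 with the 10 arrays fitted alone. Bcl3 kept its call in all 10 of those fits, while Icam1, Vcam1 and Rela lost it in 4, 3 and 3 of them (adjusted p up to 0.0705, 0.0592 and 0.0581) and Traf1 in 4 (up to 0.0661). With the replicate number as a block Bcl3 and Traf1 were not called (adjusted p = 0.0764 and 0.111), and with the 10 arrays alone Vcam1 and Rela were not (0.0641 and 0.0596).

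General myeloid markers rose nearly throughout, in 18 of 20, with a median of 0.99. Lyz2, lysozyme of macrophages, read 9.28, 9.20, 8.93, 9.01 and 8.68 against 6.38 to 6.58 (2.55, SE 0.30). Cd52 read 8.60, 8.16, 8.72, 8.84 and 7.70 against 6.06 to 6.50 (2.17, SE 0.28), and Ctss, a lysosomal protease of antigen-presenting cells, rose by 1.66 (SE 0.18). Spi1, the lineage factor PU.1, rose by 1.08 (SE 0.15).

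Markers of resident microglia were not uniform. Of 18 measured, 6 were called higher, among them Tmem119, which read 9.98, 9.52, 9.88, 10.05 and 9.30 against 8.76 to 8.96 (0.89, SE 0.14), Csf1r (0.65, SE 0.10), Selplg (0.58, SE 0.09) and Tgfbr1 (0.46, SE 0.08). P2ry12, the purinergic receptor by which resting microglia are often recognised, was at 0.15 (CI -0.03 to 0.33), and Siglech at 0.20 (adjusted p = 0.295). Of the genes that microglia induce around lesions, 11 of 23 were called. Gpnmb, a lysosomal glycoprotein, was at 7.80, 7.80, 7.45, 7.33 and 7.62 against 5.98 to 6.33 (1.45, SE 0.22). Gpnmb was 1 of 5 genes called higher in which replicate 4 had the smallest shift. Cd52, a small surface glycoprotein of leukocytes, and Cybb, in the same list, rose by more, 2.17 (SE 0.28) and 2.10 (SE 0.28). Cst7 rose by 1.68 (SE 0.36) and lost its call without 18Q replicate 4 (adjusted p = 0.0535). Without that array 7 of the 23 were called.

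Markers of other blood-borne and border myeloid cells gave fewer calls, set here against 2.47 percent of all genes called higher. Monocyte markers were called in 4 of 9, with Ms4a6c at 2.72 (SE 0.26) and Fcgr4 at 0.68 (SE 0.11), both called in all fits that left out 1 array. The count of 4 moved to 2 without 18Q replicate 1, 3 or 4 and to 6 without 18Q replicate 2. Border macrophage markers were called in 2 of 12, Ms4a7 (0.56, SE 0.11) and Cd209f (0.29, SE 0.06; adjusted p = 0.0924 with the replicate block), and their defining members Mrc1 (0.19, adjusted p = 0.3) and Cd163 (-0.05, CI -0.20 to 0.10) were not. Of 12 neutrophil markers only Csf3r, a cytokine receptor, was called (1.10, SE 0.16), while the granule proteins S100a8 and S100a9 differed by -0.04 and -0.18 (adjusted p = 0.918 and 0.38). Of 12 dendritic cell markers only Bst2 was called (0.84, SE 0.11), which is also an antiviral effector, and of 9 mast cell markers none.

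T cell markers were called in 6 of 20. Cd3g, a chain of the T cell receptor complex, read 7.74, 7.24, 8.24, 8.31 and 6.63 against 5.11 to 5.67 (2.13, SE 0.32, adjusted p = 0.000728). Cd3e, another chain, read 8.10, 7.76, 8.22, 8.27 and 7.64 against 7.12 to 7.44 (0.70, SE 0.13), and Icos, a costimulator of activated T cells, rose by 0.64 (SE 0.13). The call of Icos was lost with the 10 arrays alone (adjusted p = 0.0539) and with the replicate block (0.106). Cd4 (0.47) and Cd8b1 (0.39) were called but each lost its call in 7 of the 10 fits without 1 array (adjusted p up to 0.0987 and 0.153), and Cd8a was not called (0.36, adjusted p = 0.203). With the 10 arrays fitted alone 3 of the 20 were called, with the replicate number as a block 2, and without single arrays 3 to 8, the lowest without 18Q replicate 1, 3 or 4 or Control replicate 2, 5 or 7. Of 22 markers of cytotoxic lymphocytes 4 were called, Ccl5, Cst7, Nkg7 (0.95) and Slamf7 (0.83), a count that ran from 2 without 18Q replicate 4 to 5 without 18Q replicate 6. Nkg7 lost its call in 7 of the 10 fits without 1 array (adjusted p up to 0.118). The granule proteins themselves, Gzmb (0.35, adjusted p = 0.082) and Prf1 (0.08, CI -0.08 to 0.23), were not. Of the checkpoint genes 6 of 13 were called, among them Cd274, which codes for PD-L1 (1.19, SE 0.20), and Lag3 (1.05, SE 0.17).

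Antibody-secreting cells have markers of their own, and some of these had the largest increases after Cxcl13. Jchain, which joins chains of secreted IgA and IgM, read 10.24, 9.60, 11.02, 10.46 and 8.87 against 5.32 to 5.91 (4.50, SE 0.54, 22.6-fold, adjusted p = 8.29e-05). Igha, the heavy chain of IgA, read 12.88, 11.04, 10.94, 12.75 and 10.42 against 6.85 to 7.56 (4.31, SE 0.79). Igkv19-93, a kappa variable segment, read 12.37, 8.35, 12.76, 10.81 and 11.84 against 6.35 to 6.73 (4.69, SE 0.93), and its order of mice was not that of Igha. With the replicate block its adjusted p was 0.0668. Ighm, the heavy chain of IgM, read 11.66, 10.33, 11.25, 8.21 and 9.14 against 7.52 to 7.71 (2.52, SE 0.61), and its call was lost in 8 of the 10 fits without 1 array (adjusted p up to 0.108). All 11 immunoglobulin chains measured were above 0 and 3 were called. Plasma cell markers were called in 5 of 16, a count that ran from 3 to 8, the lowest without 18Q replicate 1, 3 or 4 or Control replicate 4 or 7. Of 19 B cell markers only Blnk was called (0.66), against 2.47 percent of all genes called higher. The call of Blnk was lost in 8 of the 10 fits (adjusted p up to 0.106). Cd79a (0.62, adjusted p = 0.115), Cd79b (0.57, adjusted p = 0.0801) and Ms4a1, which codes for CD20 (0.32, adjusted p = 0.31), were not called. The probe sets of related immunoglobulin segments may share transcripts, so that single segments are uncertain.

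Complement was called in 11 of 20 genes. C4b, of the classical pathway, read 10.93, 10.80, 11.03, 11.03 and 10.03 against 8.51 to 8.85 (2.15, SE 0.20). The chains C1qc and C1qb of the starter complex rose by 1.92 (SE 0.20) and 1.59 (SE 0.17), the receptor C3ar1 by 1.77 (SE 0.21), and the inhibitor Serping1 by 1.17 (SE 0.15). Fc receptors, through which phagocytes take up antibody-coated material, were called in 6 of 10, with Fcer1g at 1.26 (SE 0.17) and Fcgr1 at 1.02 (SE 0.13). Of the phagocyte oxidase 4 of 5 were called, with its catalytic chain Cybb at 8.59, 7.83, 8.24, 8.53 and 6.91 against 5.76 to 6.13. Lysosomal genes were called in 11 of 26, led by Ctss and Ctsc (1.44, SE 0.17). Leukocyte adhesion was called in 9 of 17, with the integrin chains Itgb2 (0.99, SE 0.15), Itgam (0.79, SE 0.14) and Itga4 (0.53, SE 0.10), and this count ran from 4 to 9 when single arrays were left out, 4 if 18Q replicate 4 was missing and 5 if 18Q replicate 1 or 3 was.

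**Figure D4:**
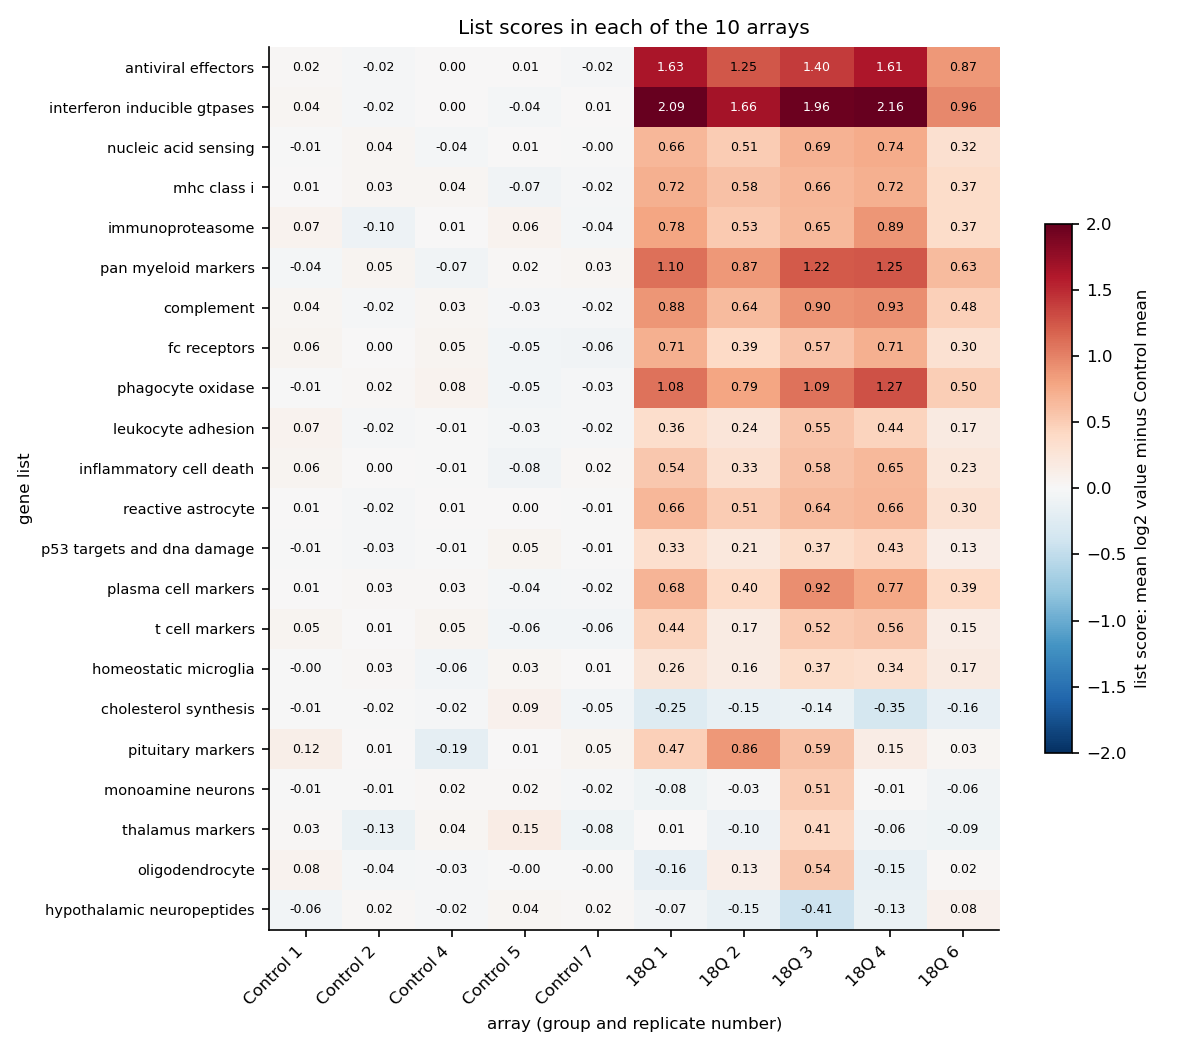
List scores in each of the 10 arrays; a score is the mean over a list's genes of the log2 value minus the Control mean, in log2 units, with red above 0 and blue below. 18Q replicate 6 has the lowest of the 5 18Q scores in each of the 12 lists with at least 1 in 2 members called higher, and 18Q replicate 3 stands apart for monoamine neurons (0.51) and thalamus (0.41).

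Genes of inflammatory cell death were called in 11 of 18 (median 0.47). Zbp1, a sensor that starts necroptosis, read 8.30, 7.80, 8.26, 8.42 and 7.34 against 6.64 to 6.81 (1.28, SE 0.20). Casp12 rose by 0.95 (SE 0.18), Casp8, which decides between apoptosis and necroptosis, by 0.81 (SE 0.14), and Casp1, the protease of the inflammasome, by 0.52 (SE 0.11). This count ran from 5 without 18Q replicate 4 to 13 without 18Q replicate 6. Of 13 genes of core apoptosis none was called, with a median of 0.03 and Bcl2 at 0.03 (CI -0.07 to 0.14).

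Outside the interferon and immune lists, called increases were found among the targets of p53, the factor that DNA damage and other stresses activate. Of 18 measured, 6 were called higher, with a median of 0.28. Eda2r, a receptor of the tumour necrosis factor family, read 7.20, 6.66, 7.13, 7.18 and 6.54 in 18Q and 6.04, 5.80, 5.75, 5.53 and 5.53 in Control (1.21, SE 0.18, 2.31-fold, adjusted p = 0.000728). Ccng1, cyclin G1, read 11.83, 11.55, 11.90, 11.95 and 11.33 against 10.87 to 10.99 (0.78, SE 0.13, adjusted p = 0.00138). Trp53inp1, an inducer of autophagy, read 10.03, 9.78, 10.16, 10.13 and 9.45 against 8.90 to 9.19 (0.91, SE 0.14, adjusted p = 0.000728). In these 3 genes no 18Q array overlapped a Control array, and each was called in all fits that left out 1 array. Sesn2, a stress-induced regulator of growth (0.54, SE 0.12), Phlda3, an inhibitor of AKT (0.36, SE 0.08), and the death receptor Fas (0.34, SE 0.08) were also called. Without 18Q replicate 4 these 3 calls were lost. Over the 10 fits without 1 array Phlda3 lost its call in 1 (adjusted p up to 0.0535), Sesn2 in 2 (up to 0.0638) and Fas in 5 (up to 0.0823). Sesn2 and Fas were not called with the 10 arrays alone (0.0547 and 0.0829), nor Phlda3 with the replicate block (0.087). Mdm2, which degrades p53 and is among its best known targets, was at 0.20 (CI 0.03 to 0.37, adjusted p = 0.293), and Bbc3, the death gene PUMA, at -0.04 (CI -0.17 to 0.09). The list also names Cdkn1a and Bax, which have no single-symbol probe set here and were not read. The count of called p53 targets ran from 3 without 18Q replicate 4 to 8 without 18Q replicate 6, and with replicates 4 and 6 alone it was 0.

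Among glia, reactive astrocyte genes were called in 13 of 25 (median 0.42), and several of these are interferon targets as well. Gfap, the filament of astrocytes, read 10.79, 10.83, 11.15, 10.87 and 10.42 against 9.88 to 10.14 (0.77, SE 0.14). Serping1, Osmr, Psmb8 and Cxcl10 of this list are described above. Of 20 genes of resting astrocytes only Aqp4, the water channel of their endfeet, was called (0.52, SE 0.12), a call lost in 7 of the 10 fits without 1 array (adjusted p up to 0.0785). Aldh1l1 was at 0.13 (CI -0.03 to 0.29) and the glutamate transporter Slc1a2 at -0.02 (CI -0.12 to 0.08). No oligodendrocyte gene of 21 and no precursor gene of 14 was called, with Mbp at 0.08 (CI -0.09 to 0.24) and Mog at -0.04 (CI -0.29 to 0.20). Ependymal cells and tanycytes gave 0 calls of 15. With 2.47 percent of all genes called higher and 0.431 percent lower, lists of these sizes may hold no call or a single call.

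Of 27 genes of the vessel wall and its barrier, 2 were called higher and 1 lower. Mfsd2a, the lipid transporter that keeps the barrier tight, read 10.26, 10.37, 10.40, 10.36 and 10.54 in 18Q and 10.62, 10.74, 10.76, 11.07 and 10.88 in Control, 1.34-fold lower (-0.43, SE 0.11, adjusted p = 0.0447). Cd34 rose by 0.40 (SE 0.09) and the tight junction protein Cldn5 by 0.37 (SE 0.09), the latter with overlapping groups. All 3 calls were near the threshold, and Mfsd2a, Cd34 and Cldn5 lost theirs in 8, 4 and 9 of the 10 fits without 1 array (adjusted p up to 0.139, 0.0687 and 0.118). In pericytes and fibroblasts 1 of 18 was called, against 2.47 percent of all genes called higher. This was Anpep (0.32), which lost its call in 7 of the 10 fits (adjusted p up to 0.147).

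Of the 8 lists with a gene called lower, that of cholesterol synthesis held the most. Of its 17 measured genes, 8 were called lower and none higher, against 0.431 percent of all genes, with a median of -0.21 and no member above 0. Dhcr7, an enzyme of the last steps, read 9.42, 9.50, 9.40, 9.25 and 9.56 in 18Q and 9.75, 9.73, 9.68, 9.70 and 9.63 in Control, 1.21-fold lower (-0.27, SE 0.05, adjusted p = 0.00655). Nsdhl, a sterol dehydrogenase, read 9.82, 9.78, 9.74, 9.58 and 9.88 against 10.00 to 10.20 (-0.31, SE 0.06, adjusted p = 0.00893). Mvk, mevalonate kinase, read 8.91, 8.85, 8.86, 8.73 and 8.90 against 8.94 to 9.14 (-0.21, SE 0.04, adjusted p = 0.0119). Idi1, which isomerises the isoprene unit, fell by 0.34 on the log2 scale (SE 0.07), and Cyp51, which demethylates lanosterol, fell by 0.36 (SE 0.08). Mvd (-0.24), Sqle (-0.22) and Tm7sf2 (-0.22) were the other called members. In each of these 8 genes every 18Q array was below every Control array. These differences are small, and their number depends on single arrays. Without Control replicate 5, 3 of the 17 were called, and 4 were called where 18Q replicate 1 or 4 was left out. With the 10 arrays fitted alone 2 were called, with the replicate number as a block 5, with arrays centred on their medians 10, and with replicates 4 and 6 as the only 18Q arrays 2. Idi1 lost its call without Control replicate 5 (adjusted p = 0.0518), and Cyp51 in 3 of the 10 fits (adjusted p up to 0.0749). Mvd, Sqle and Tm7sf2 lost theirs in 7, 3 and 4 fits (adjusted p up to 0.116, 0.0735 and 0.064), each also without Control replicate 5. Dhcr7, Nsdhl and Mvk were called in all 10. The 2 called with the 10 arrays alone were Dhcr7 and Nsdhl, and of the 8 genes Cyp51, Mvk, Sqle and Nsdhl were not called with the block (adjusted p = 0.0515, 0.0891, 0.0886 and 0.0514). Hmgcs1, the enzyme before the rate-limiting step, was at -0.25 (adjusted p = 0.0677).

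Of 18 genes of sterol sensing and uptake only Insig1 was called, an anchor protein of sterol sensing that is itself a target of the sterol factor SREBP2. It read 10.69, 10.88, 10.89, 10.50 and 10.76 against 10.99 to 11.25 (-0.33, SE 0.08, adjusted p = 0.0238), and lost its call in 4 of the 10 fits (adjusted p up to 0.0812). Srebf2, the gene of SREBP2, was at -0.17 (CI -0.27 to -0.07, adjusted p = 0.0791). The sterol regulatory element TCACNCCAC was found in 1.24 percent of all promoters and in 1 of the 17 promoters of cholesterol synthesis genes. On the side of export and transport 3 of 15 genes rose: the transporter Abca1 (0.42, SE 0.08), the lipocalin Apod (0.52, SE 0.11) and Apoe (0.17, SE 0.04), the last of which lost its call in 8 of the 10 fits (adjusted p up to 0.103).

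The other metabolic lists gave few calls, set here against 2.47 percent higher and 0.431 percent lower over all genes. Elovl2, an elongase of long fatty acids, fell by 0.30 (SE 0.06, adjusted p = 0.00758) and was the only called gene of 23 in fatty acid synthesis. Aldh5a1, which clears the breakdown product of GABA, fell by 0.23 (SE 0.05) and was the only one of 24 in the breakdown of branched and short acids. Its call was lost with the 10 arrays alone (adjusted p = 0.0641) and with the replicate block (0.0674). In glycolysis the triose isomerase Tpi1 (-0.17) and the neuronal enolase Eno2 (-0.14) fell and hexokinase Hk2 (0.35) rose, of 18. The calls of Tpi1, Eno2 and Hk2 were lost in 4, 7 and 5 of the 10 fits (adjusted p up to 0.0609, 0.112 and 0.0885). None of 21 genes of fatty acid oxidation, 22 of the citrate cycle and 36 of oxidative phosphorylation was called, with medians of 0.01, -0.06 and -0.03.

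Most neuronal lists held no called gene. At the shares over all genes, 2.47 percent higher and 0.431 percent lower, lists of these sizes may do so. Of 38 hypothalamic neuropeptides none was called, with 7 above 0 and a median of -0.12. The 18Q arrays read 12.74, 12.87, 12.47, 12.32 and 12.70 for Hcrt, orexin, against 12.63 to 12.83, and 12.38, 12.62, 12.32, 11.99 and 12.43 for Pmch, melanin-concentrating hormone, against 12.41 to 12.59. For Npy (-0.05, CI -0.62 to 0.51), Pomc (-0.23, CI -0.52 to 0.06), Oxt (-0.58, CI -1.35 to 0.19) and Avp (-0.66, CI -1.43 to 0.10) the intervals were wide, and replicate 3, with its low Avp, was the lowest 18Q array for each of the 4. No hypothalamic receptor of 36, no identity factor of 28 and no monoamine gene of 20 was called. GABA and glycine signalling (24 genes, median -0.11) and the general synaptic list (29 genes, median -0.11) had no member above 0, against 42.9 percent of all genes, and medians of glutamate genes (-0.05, 29 genes) and ion channels (-0.06, 39 genes) were also below that of all genes. In the synaptic list 2 of 29 genes were called, both lower, against 0.431 percent of all genes. That count ran from 0 to 3 when single arrays were left out. Ralyl, which codes for an RNA-binding protein of neurons, was called (-0.45, SE 0.10) beside Eno2. The call of Ralyl was lost in 3 of the 10 fits (adjusted p up to 0.0749). Rbfox3, the neuronal nuclear protein, was at -0.14 (adjusted p = 0.176), Syn1, whose human promoter drives the vector, at -0.13 (adjusted p = 0.119), and Snap25 at -0.09 (adjusted p = 0.397).

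Mouse Htt, the endogenous counterpart of the delivered fragment, read 10.30, 10.36, 10.28, 10.33 and 10.22 in 18Q and 10.26 to 10.37 in Control (-0.01, CI -0.08 to 0.06). The human transgene has no measure of its own here. Whether the mouse probes also bind its transcript was not checked, so the value may not be that of mouse Htt alone. None of 19 genes of huntingtin and its partners was called, with Hap1 at -0.14 (CI -0.33 to 0.05). The unfolded protein response gave 2 of 23, against 2.47 percent of all genes called higher. They were Creld2 (0.35, SE 0.07) and Edem1 (0.48, SE 0.11). The call of Creld2 was lost with the 10 arrays alone (adjusted p = 0.0502) and the replicate block (0.0612), and that of Edem1 in 8 of the 10 fits without 1 array (up to 0.0933). Heat shock proteins (15), clock genes (19) and cell division genes (27) gave no calls. Of the immediate early genes Atf3, a stress factor of injured neurons, was the only one of 19 called (0.41, SE 0.09, lost in 4 fits with adjusted p up to 0.0687). Of 17 glucocorticoid-responsive genes Hif3a fell (-0.44, SE 0.11), with overlapping groups and a call lost in 8 fits (adjusted p up to 0.145). Markers of thalamus, choroid plexus, red cells (3 measured) and striatum or cortex gave no calls. At 2.47 percent higher and 0.431 percent lower over all genes, lists of these sizes may hold no call or a single call.

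Outside the lists, the largest called decreases with groups that did not overlap included Kifc2, a kinesin of neurites, at 10.08, 10.07, 10.02, 9.92 and 10.18 against 10.29 to 10.51 (-0.33, SE 0.05, adjusted p = 0.000641). C530005A16Rik, a gene of no assigned function in its name, read 7.79, 8.03, 7.73, 8.01 and 8.11 against 8.26 to 8.48 (-0.40, SE 0.07), and Podxl2, a sialomucin, 9.60, 9.80, 9.61, 9.69 and 9.79 against 9.96 to 10.02 (-0.30, SE 0.06). These 3 were called in all 10 fits that left out 1 array, and Podxl2 was not called with the replicate block (adjusted p = 0.0515). Of the 10 largest decreases, 3 others, Ralyl, Mfsd2a and Elovl2, belong to lists outside sterol synthesis, and Cyp51, Idi1, Insig1 and Nsdhl to sterol synthesis and its control.

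The 79Q fragment served to ask whether the pattern was particular to the non-expanded fragment. Both groups share their Control arrays, so only the contrast of 79Q minus 18Q tests a difference. In it no gene passed (smallest adjusted p 0.256 by limma over all probe sets). An unadjusted p under 0.05 was found for 1475 of the 34760 probe sets and for 72 of the 579 called genes. Those 579 genes were chosen by the same 18Q arrays that enter this contrast. Their count therefore does not test a difference between the fragments. For Ifit1 18Q minus Control was 3.51 and 79Q minus Control 3.08, and 79Q minus 18Q was -0.42 (CI -0.88 to 0.04). For Cd74 the values were 3.33, 3.49 and 0.16 (CI -0.41 to 0.73), and for Jchain 4.50, 3.85 and -0.64 (CI -1.68 to 0.39). The p53 targets Eda2r, Ccng1 and Trp53inp1 gave 0.19 (CI -0.15 to 0.54), 0.08 (CI -0.16 to 0.32) and -0.00 (CI -0.26 to 0.26) for 79Q minus 18Q, and Dhcr7, Nsdhl and Cyp51 of cholesterol synthesis 0.02 (CI -0.08 to 0.12), -0.03 (CI -0.15 to 0.09) and -0.01 (CI -0.16 to 0.14). Ralyl fell by 0.45 with 18Q and was at -0.18 with 79Q, a difference of 0.27 (CI 0.08 to 0.46). It was named for its large 18Q decrease, so this interval carries the same choice. The intervals leave room for differences of these sizes, so a missed threshold does not show that the fragments act alike.

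**Figure D5:**
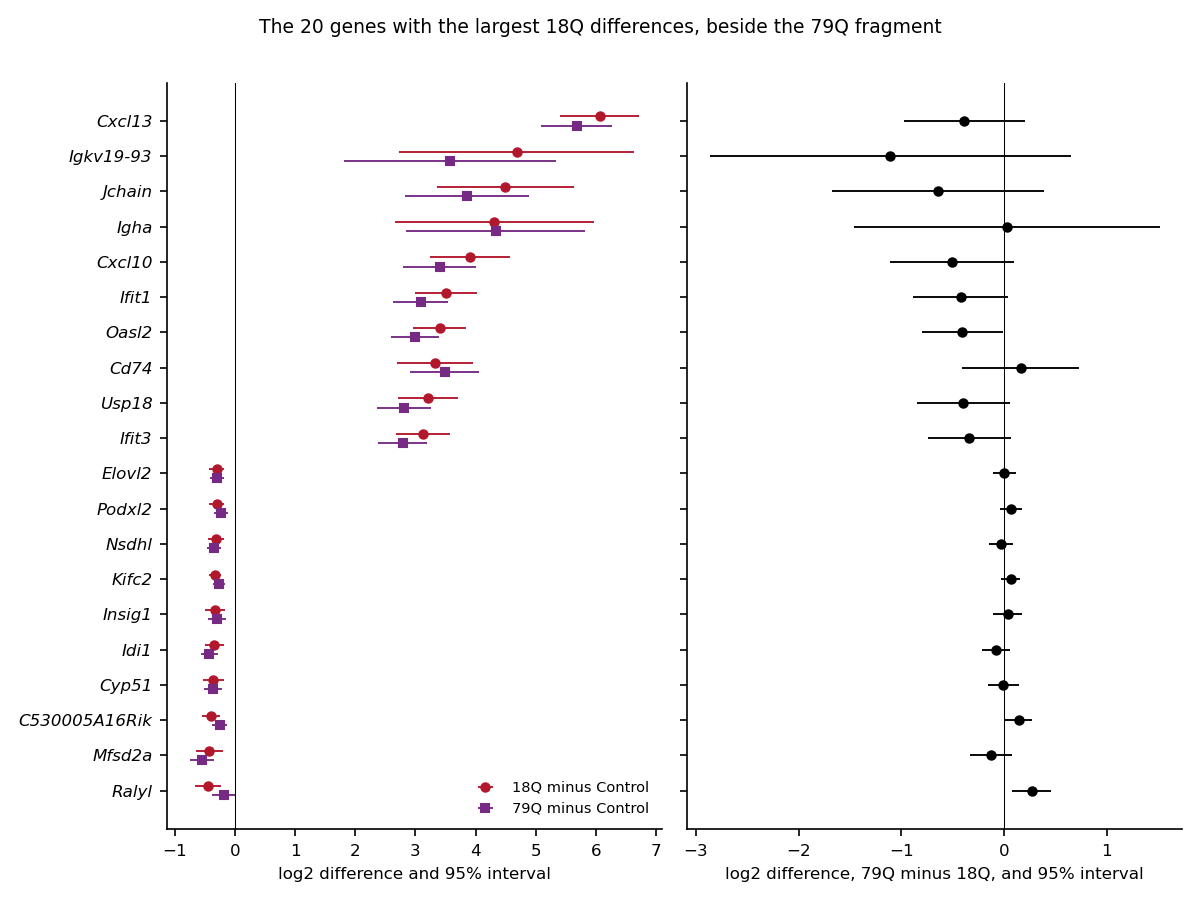
For the 20 genes with the largest called 18Q differences, the left panel gives the log2 difference from Control of 18Q (red) and 79Q (purple) with 95% intervals, and the right panel the difference of 79Q minus 18Q with its 95% interval. In the right panel the intervals of Oasl2, Ralyl and C530005A16Rik exclude 0, and none of the 20 genes passed the adjusted test. The 20 genes were chosen by their 18Q values, which also enter the right panel.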

How the data were processed

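Hypothalamic RNA had been hybridised to Affymetrix Mouse Gene ST arrays, and RNA with an integrity number under 7 had been omitted per the study's methods. The deposited values are intensities on the log2 scale, which the authors obtained by Robust Multi-Array Averaging (background correction, quantile normalization, median polish). Their processing notes name R 4.1.1, affy 1.70.0 and limma 3.48.3. The raw files were not processed again. Samples were grouped by their labels, and the labels and methods give 1 mouse per array. Gene names came from the platform annotation: 21640 probe sets have 1 symbol, 1321 several and 11799 none here, and the probe set with the highest mean stands for a gene (19937 genes). 131 list entries have no such probe set.

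From the deposited values, limma 3.58.1 in R 4.3.3 (lmFit, contrasts.fit and eBayes at defaults) was fitted to the 18 AAV arrays with 1 mean per group, and p-values are two-sided and adjusted by Benjamini-Hochberg over 34760 probe sets at 0.05. The SE and 95% CI are those of limma. Every sample is a separate mouse, and precision is limited by how many arrays there are. The procedure was tested on simulated data. Figures and promoter searches used Python 3.11.15, pandas 2.3.3 and matplotlib 3.10.9.

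Genes were named by rule: the 10 largest called increases and decreases with groups that do not overlap, Htt, up to 4 called members with the smallest p per list and direction, and defining members of a list. Further members, such as Gfap, Sesn2, Fas, Traf1, Sqle, Mvd, Tm7sf2, Cgas, Mavs, Tbk1, Tnf, Il1b, Il6, Cxcr3 and Cxcr5, were added after their values were seen. The comparison, lists and tests were chosen with earlier results of these data known. Alternatives were the 10 arrays alone, median centring, repeated quantile normalization, no dim probe sets, an intensity trend with robust eBayes, a replicate block, a fold limit, the mean of all probe sets of a gene, and leaving out each array.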

Additional observations from a re-analysis of the deposited data

Results flagged for a closer look

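In a search for single arrays far from the others of their group of 5, 186 groups of values were examined, 144 of list scores and 42 of genes, and 12 held such an array. The measure is the gap to the nearest array as a share of the group's range, and chance gives about 1 in 20 groups.

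In 18Q, replicate 3 was the array apart in 3 lists. Its score of monoamine neurons was 0.51 against -0.08 to -0.01 (gap share 0.885), that of thalamus markers 0.41 against -0.10 to 0.01 (0.792), and that of ependymal cells and tanycytes -0.22 against -0.04 to 0.00 (0.789).

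In Control, replicate 1 was high for the endothelial barrier (0.889), pericytes and fibroblasts (0.803), leukocyte adhesion (0.74) and the gene C530005A16Rik (0.716), and low for Podxl2 (0.758). Control replicate 5 was high for fatty acid oxidation (0.741), p53 targets (0.779) and Cyp51 (0.736), and low for cytotoxic lymphocyte markers (0.734). Without Control replicate 5 the call of Cyp51 was lost, and C530005A16Rik and Podxl2 were called without Control replicate 1.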

How the results depend on the processing

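The count of genes called higher was steadier than that of genes called lower. From 735 probe sets and 579 genes, 493 higher and 86 lower, the genes lower moved to 19 with the 10 arrays fitted alone, 195 with arrays centred on their medians, 164 without dim probe sets, 130 with an intensity trend and robust eBayes, and 185 with the mean of all probe sets of a gene. Leaving out dim probe sets kept 11688 genes, gave 322 higher, and put 21 in place of 12 lists at 1 in 2 members called higher. A limit of 0.5 log2 units left 408 probe sets and 304 genes, 304 higher and 0 lower. Leaving out single arrays gave 472 to 1129 probe sets, 350 to 889 genes, 326 to 664 higher, 22 to 225 lower and 9 to 16 lists. The lowest was without 18Q replicate 4 and the highest without 18Q replicate 6, except that genes lower were fewest without 18Q replicate 1 and that 9 lists were also found without 18Q replicate 3, Control replicate 4 or Control replicate 5. Replicates 4 and 6 as the only 18Q arrays, chosen after the data were seen, gave 123 probe sets, 79 genes, 76 higher, 3 lower and 1 list. What moved these counts was not tested.

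With the replicate number as a replicate block, 555 probe sets and 418 genes were called, 374 higher and 44 lower. The labels share numbers 1, 2 and 4 between the groups, and same-numbered arrays deviated together with correlations of 0.0927, 0.0286 and 0.0530, so that the numbers were not taken to pair the mice.

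Of 185 named genes 135 were called, and 102 of these were called in all 10 fits without 1 array. Over 3274 recomputed values of named genes none changed direction past the threshold, and 331 lost a call. No named gene passed in 79Q vs. 18Q, with or without centring (0 and 0). Differences as small as those of cholesterol synthesis were near the limit that 5 arrays against 5 allow.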

Other observations

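Of the 735 called probe sets, 125 carry no single gene symbol here and were left unnamed. 15 called genes had other probe sets on the array, 19 in all. Of these 17 had the same sign as the probe set that stood for the gene and 9 were called in the same direction.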
